A study of Rattus norvegicus with 21 samples.

Results

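Potassium channel genes were followed in islets of Langerhans, where the pancreas makes insulin and glucagon. The set comprised every gene of the count table whose symbol begins with Kcn, 1 gene apart, that had at least 10 reads in 10 or more of the 21 libraries. Of 91 such symbols 46 met this rule, among 28914 gene names in all. The islets were from Lewis rats, taken 4 weeks after an operation. For the PX group (11 libraries) this was a partial pancreatectomy that removed 90% of the gland, so that the remaining islets had to supply all insulin. The other group (10 libraries) was sham-operated. Each title carries an animal number and a BG value, an average taken before the animal was killed and given without a unit. Every title of both groups also holds the entry Inc_YES, whose meaning the titles do not give. The labels name no genotype, drug, sex or sequencing batch, and describe the animals of both groups as 4 to 5 weeks in one field, without saying whether that is an age or a time. Nothing beyond the animal number says that the libraries came from separate rats, so each p-value reflects library-to-library spread, which may be technical.

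Potassium channels let potassium leave the cell and so pull the membrane back towards rest. In a beta cell, closure of ATP-sensitive potassium channels by glucose metabolism depolarizes the membrane and opens calcium channels, and voltage-gated and calcium-activated potassium channels then end each action potential and set how much calcium enters. Leak channels of the K2P class set the resting potential, inward rectifiers pass potassium near rest and in some cases open or close with nucleotides or G proteins, and partner subunits change the traffic and gating of the pores. Islets also hold alpha, delta, vascular, immune and residual exocrine cells, many of which have potassium channels of their own.

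Total counts ran from 4001908 to 13187959 per library and did not differ between groups beyond their spread (permutation test, adjusted p = 0.44 over 13 library measures). Beta cell markers were plentiful in all libraries: the 7 measured here, the insulin genes among them, summed to 84352 to 160764 CPM in sham and 76609 to 228058 CPM in PX (CPM, a gene's share of a library's total count, scaled by edgeR's TMM factor). Markers of other cells moved with the group. The macrophage score, a mean log2 CPM of 12 markers, averaged 1.90 ± 0.41 over the 10 sham libraries (SD) and 4.33 ± 0.89 over the 11 PX libraries (SD), and its markers summed to 45.0 to 145 CPM in sham and 199 to 1839 CPM in PX, with none at 0. All 12 macrophage and all 12 mesenchymal markers were called higher in PX, and the mesenchymal sum was 270 to 913 CPM in sham and 776 to 2995 CPM in PX. The acinar score (12 markers of enzyme-secreting exocrine cells) averaged 10.9 ± 2.09 over sham libraries and 12.8 ± 1.27 over PX libraries (SD, n = 10 and 11), with 3 of 12 markers called higher, and it was 15.6 in PX 65. Acinar markers summed to 4579 to 211437 CPM in sham (median 75229) and 45147 to 1.17e+06 CPM in PX (median 151541). These sums are TMM-scaled and so are not shares of the raw total. Beta marker sums had medians of 119843 CPM in sham and 121661 CPM in PX, so in PX the acinar median was the higher. The delta cell score fell to 4.30 ± 0.34 from 5.15 ± 0.42 in sham, and the endocrine score to 7.23 ± 0.19 from 7.42 ± 0.18 (SD, n = 11 and 10; permutation tests, adjusted p = 4.2e-04 and 0.031). By the same test the alpha cell score fell to 5.01 ± 0.52 from 5.70 ± 0.65 (adjusted p = 0.029). The endothelial score rose to 6.23 ± 0.15 from 5.88 ± 0.23 (adjusted p = 0.0015). For the beta cell score, at 11.26 ± 0.30 and 11.45 ± 0.16 in sham, the adjusted p was 0.11. In whole islets, fewer cells of a type and less RNA per cell cannot be told apart. PX 65, PX 44 and Sham 46 stood apart in several genes below and are named where they matter. The TMM factor of PX 65 was 0.359, beside 0.820 to 1.268 in the other libraries. Its scaled CPM values and scores are therefore raised, relative to its unscaled reads, more than those of any other library.

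The promoters of 3 members called in the comparison of PX with sham are shown, so that a reader can set a pair of genes that fell and 1 that rose side by side. Windows run from 250 bases before to 50 bases after the RefSeq start on build GRCr8, 5′ to 3′ on the gene's strand. Capitals mark matches, on either strand, to the GC box GGGCGG, the TATA box TATAAA, and the left arm TTCAGCACC and right arm GGACAGC of RE1, the element bound by the neuronal repressor REST. The RE1 arms were added to the search after the Kcnh6 sequence had been seen.
Kcnh6 (lower in PX), chr10:91449401-91449700, plus strand: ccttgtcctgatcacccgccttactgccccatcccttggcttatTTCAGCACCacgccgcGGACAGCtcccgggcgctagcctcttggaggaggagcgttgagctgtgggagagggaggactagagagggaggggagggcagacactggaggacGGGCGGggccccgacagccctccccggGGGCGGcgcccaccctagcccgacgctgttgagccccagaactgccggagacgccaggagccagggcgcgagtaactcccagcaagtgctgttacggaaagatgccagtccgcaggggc
Kcnn3 (lower in PX), chr2:177234090-177234389, plus strand: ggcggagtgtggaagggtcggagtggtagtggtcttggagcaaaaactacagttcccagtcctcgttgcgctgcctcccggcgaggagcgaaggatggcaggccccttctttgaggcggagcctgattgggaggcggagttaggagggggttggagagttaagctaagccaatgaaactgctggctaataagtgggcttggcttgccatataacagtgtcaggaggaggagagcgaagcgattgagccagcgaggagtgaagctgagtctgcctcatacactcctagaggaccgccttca
Kcnj8 (higher in PX), chr4:177246499-177246798, minus strand: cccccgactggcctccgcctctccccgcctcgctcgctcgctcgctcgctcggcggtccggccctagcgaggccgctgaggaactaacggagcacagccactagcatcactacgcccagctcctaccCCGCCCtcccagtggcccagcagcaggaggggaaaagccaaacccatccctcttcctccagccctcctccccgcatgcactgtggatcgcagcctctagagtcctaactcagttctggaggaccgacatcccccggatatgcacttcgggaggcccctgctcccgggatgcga
Kcnh6 held 2 GC boxes and both RE1 arms, Kcnj8 held 1 GC box, and Kcnn3 held none of the 4. Of 46 members 31 had a window in the RefSeq table, and 16 of the 31 held a GC box, against 34.9% of 27457 windows of the same length, 1 per gene. A TATA box was found in 0 of the 31 and in 14.3% of all windows. The members had passed a rule on reads in islets, and the windows of all genes had not. The shares and the GC content below therefore compare unlike sets. The left RE1 arm was in 1 member, Kcnh6, and in 0.379% of all windows, and the right arm in 3 members and in 6.64%. Both arms, in any order, spacing or strand, were in 16 windows of 27457. As the arms were picked from the Kcnh6 sequence, these figures do not test for an RE1 element there. GC content was 67.7% for Kcnh6, 57% for Kcnn3 and 67% for Kcnj8, with a median of 52.3% over all windows. A match is a stretch of letters only, and the start used by islets was not measured.

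Levels of different genes were compared per kilobase of the gene length in the count table. Kcnma1, the pore of the large-conductance calcium-activated (BK) channel, was highest at 64.7 CPM per kilobase in sham and 55.8 in PX. Kcnh6, a voltage-gated channel of the ERG class, was at 56.96 and 36.8, Kcnk16, the pancreatic leak channel TALK, at 37.8 and 37.9, and Kcnh2, a relative of Kcnh6, at 27.5 and 19.8. Kcnip3, Kcnk1 and Kcnmb2 were the other named genes above 10 CPM per kilobase. By class, the 17 voltage-gated pore genes held 40.4% of the summed level of the 46 members, the 7 calcium- or sodium-activated genes 24.01%, the 6 leak channels 18.7%, the 7 partner subunits 11.4%, the 7 inward rectifiers 4.69% and the 2 modifier pores, which form channels only with other pores, 0.795%. The lowest member was Kcnq5, at 0.291 CPM per kilobase over all libraries. In PX Kcnk16 and Kcnh6 lay within 1 SD of each other.

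**Figure D1:**
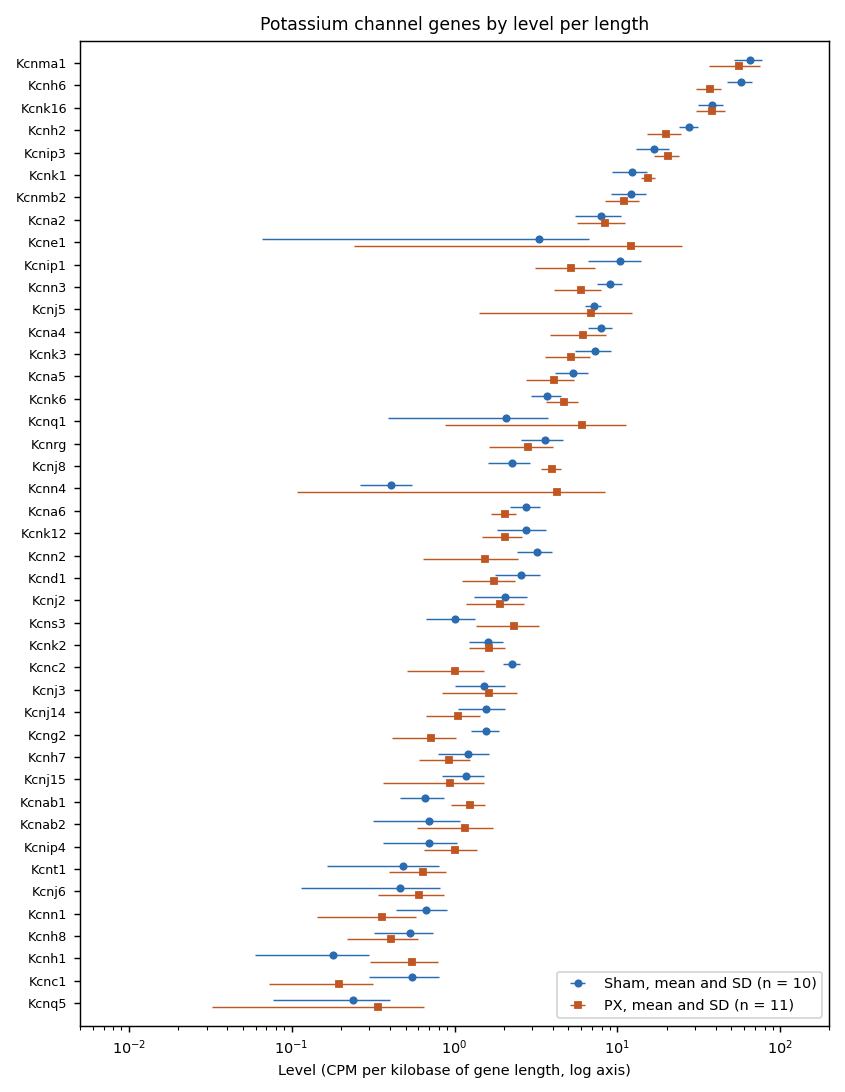
Level of 43 of the 46 members in CPM per kilobase of gene length on a log axis, as mean and SD for 10 sham (circles) and 11 PX libraries (squares); where the SD exceeds the mean, the lower bar is cut short of 0. The 7 genes from Kcnma1 to Kcnmb2 lie above 10 CPM per kilobase over all libraries.

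The rule's limit fell among genes of few reads. Kcnc1 and Kcnn1 were just inside it, with 10 reads in 10 libraries each, and Kcnt2 was just outside, in 8. Of the 45 symbols left out, 32 had 10 reads in no library and 8 had no read at all. A member could pass through 1 group alone: 6 members had 10 reads in at most 5 sham libraries and 4 in at most 5 PX libraries. Kcnn4 (11 PX and 2 sham libraries), Kcnh1 (10 and 2) and Kcnc1 (1 and 9) were the most uneven, so the counts of calls below describe the members that passed and support nothing about the family as a whole. Kcnh1, a pore of the EAG class, did not pass the expression filter of the comparison, which left 45 members tested. It was at 0.884 ± 0.591 CPM in sham (SD, n = 10) and 2.70 ± 1.20 CPM in PX (SD, n = 11), with 8 PX libraries above every sham library.

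PX was compared with sham because the study set out to learn what high blood glucose does to islets. Of 45 tested members 14 were lower in PX and 8 higher, and 23 were not called (quasi-likelihood F-test of edgeR, p adjusted over 13136 genes after Benjamini and Hochberg, threshold 0.05). Over all tested genes 16.2% were called lower and 14.9% higher, beside 31.1% and 17.8% of the tested members. Their median log2 fold change was -0.21, beside -0.04 for all tested genes. By class, 8 of the 16 tested voltage-gated pore genes were lower and 2 higher, 3 of 7 calcium- or sodium-activated genes were lower and 1 higher, and inward rectifiers had 1 higher and 0 lower of 7. Leak channels had 1 in each direction of 6, modifier pores 1 in each direction of 2, and partner subunits 2 higher and 1 lower of 7. Kcnn4 was the 1 member with every PX library above every sham library, which held for 1.55% of tested genes, and 0 members had every PX library below every sham library, which held for 0.145%.

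**Figure D2:**
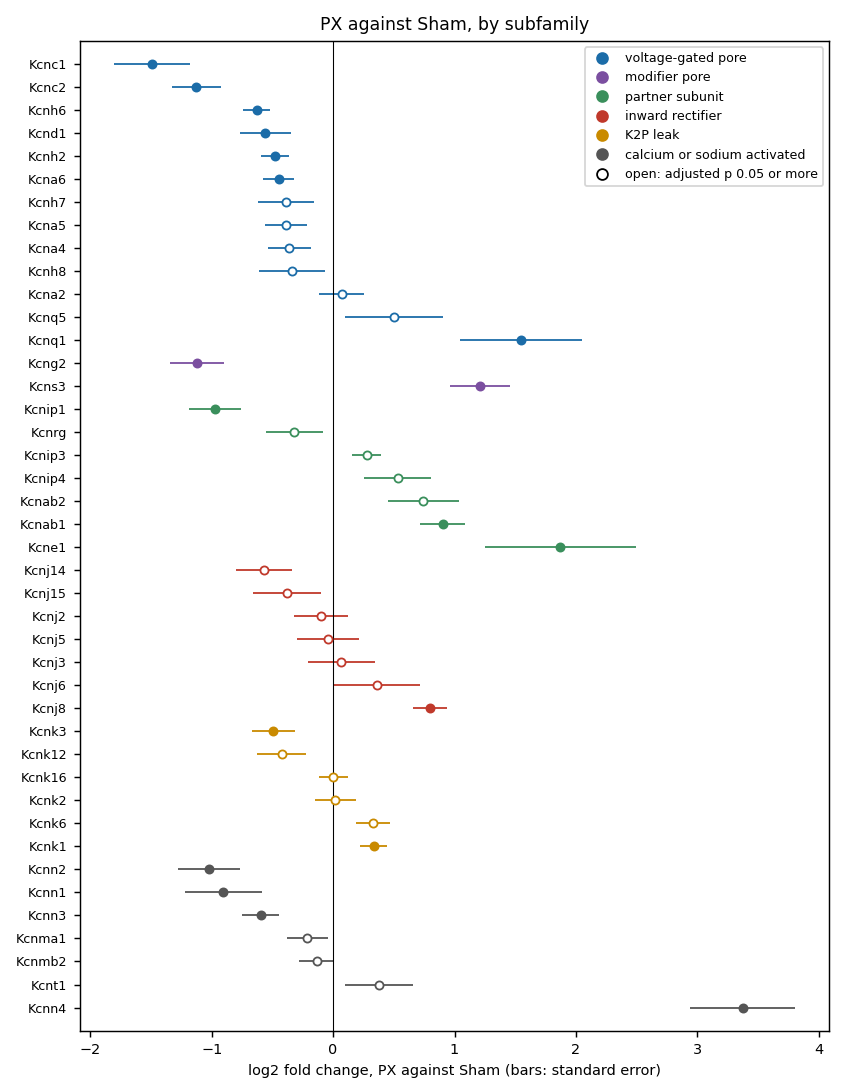
Log2 fold change of PX against sham with its standard error for 42 of the 45 tested members, coloured by class; filled points passed the adjusted threshold and open points did not. The filled voltage-gated pore genes left of 0 run from -1.49 for Kcnc1 to -0.45 for Kcna6, and Kcnn4 lies farthest right at 3.37.

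These counts depended on the libraries and on the scaling. In the 5 PX libraries of animals 36 to 44 and the 5 sham libraries of the neighbouring numbers 46 to 50, whose acinar scores were 11.7 ± 0.57 and 12.8 ± 0.40 and macrophage scores 4.02 ± 0.74 and 1.9602 ± 0.58 (SD, n = 5 each), 1 member was called higher and 0 lower (edgeR; 2.51% and 0.194% of all genes). Without PX 41, 9 members were called lower, beside 10.6% of all genes. The reference library of the TMM scaling was PX 44 in the main fit but Sham 47 in this one, as in several fits without 1 library. Such fits changed the libraries and the scaling together. With Sham 47 as the reference over all 21 libraries, 11 members were higher and 12 lower (16.7% and 12.2% of all genes). Without PX 44, PX 65 and Sham 46 together, a set chosen after seeing the data, 12 were higher and 13 lower (20.1% and 17.2% of all genes). With DESeq2 size factors 11 members were higher and 12 lower (16.6% and 12.5% of all genes), and with library totals alone, which moved the median of all genes by -0.24, 6 were higher and 17 lower (7.54% and 17.0%). With both the macrophage and the mesenchymal score in the fit 0 of the 22 kept their call, and 0.0457% of all genes were called higher and 0.0152% lower; these scores and the group were themselves tied (R squared 0.769). With the endocrine score as a covariate 5 were higher and 9 lower (9.64% and 7.47% of all genes), and with the acinar score 4 and 10 (9.89% and 7.2%). Mitochondrial genes took 2.91% ± 1.30 of PX counts and 4.34% ± 1.28 of sham counts (SD, n = 11 and 10), and the part of this difference in the calls was not tested.

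Among the voltage-gated pores, both ERG genes Kcnh6 and Kcnh2, whose channels help to repolarize the membrane, fell. Kcnh6 ranged from 130 to 236 CPM in sham, with a median of 196, and from 85.3 to 167 CPM in PX, with a median of 130. All 11 PX libraries lay below the sham median and 6 below the lowest sham library, Sham 46. Its mean fell from 196 ± 33.4 (SD, n = 10) to 127 ± 22.2 CPM (SD, n = 11). The log2 fold change was -0.63 ± 0.11 (SE; edgeR, adjusted p = 1.9e-04), or 1.55-fold lower. In the libraries of neighbouring animal numbers it was -0.47 ± 0.17 (SE; edgeR, adjusted p = 0.17).

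Kcnh2, the gene of the related hERG channel, ranged from 89.1 to 135 CPM in sham (median 111) and from 57.4 to 128 CPM in PX (median 74.8). Every PX library but PX 37 lay below the lowest sham library, and the log2 fold change was -0.48 ± 0.11 (SE; edgeR, adjusted p = 0.0028).

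Kcnc1 and Kcnc2 encode fast delayed rectifiers of the Shaw class, and both fell. Kcnc2 ranged from 7.05 to 10.0 CPM in sham (median 8.44) and from 1.48 to 8.75 CPM in PX (median 3.44), and 10 of 11 PX libraries lay below every sham library, the exception being PX 44. This was a fall by 1.13 ± 0.20 on the log2 scale (SE; edgeR, adjusted p = 1.9e-04), 2.18-fold lower. Kcnc1 was near the detection limit, with 1.17 to 4.19 CPM in sham and 0.212 to 1.58 CPM in PX, and a log2 fold change of -1.49 ± 0.31 (SE; edgeR, adjusted p = 8.9e-04).

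Of the Shaker-class pores, Kcna6 fell by 0.45 ± 0.13 on the log2 scale (SE; edgeR, adjusted p = 0.010), with all 11 PX libraries, at 10.6 to 17.0 CPM, below the sham median of 18.6. Kcna4, Kcna5 and Kcna2 had log2 fold changes of -0.36, -0.39 and 0.07, none of them called. Kcnd1, a pore of the rapidly inactivating A-type current, was called at -0.56 ± 0.21 (SE; edgeR, adjusted p = 0.048), and leaving out any of 18 libraries ended the call. Taking Sham 47 as the TMM reference over all 21 libraries ended it too, and several of those fits had that reference. Kcnh7 and Kcnh8 had values of -0.39 and -0.34, and Kcnq5, a subunit of the slow M-current, of 0.50 ± 0.41 (SE), none of them called.

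Kcnq1 and Kcne1 encode the pore and the single-pass partner of the slow delayed rectifier, known from heart and from epithelia, the exocrine pancreas among them. Kcnq1 ranged from 0.960 to 19.6 CPM in sham (median 6.86) and from 6.497 to 81.7 CPM in PX (median 22.2). Kcne1 ranged from 0 to 4.77 CPM in sham (median 0.910) and from 1.21 to 27.5 CPM in PX (median 4.96). In both genes PX 65 was far above the other libraries in TMM-scaled CPM, but not by unscaled reads. It had 386 reads of Kcnq1 and 130 of Kcne1 in a total of 13187959. PX 58 had 256 and 85 in a total of 9056756. Within each group the levels went with the run of animal numbers, as the acinar score did: Kcnq1 was 2.56 ± 1.51 CPM in Sham 21 to 24, 73 and 74 and 13.95 ± 4.17 in Sham 46 to 50 (SD, n = 5 each), where the acinar scores were 9.14 ± 1.21 and 12.8 ± 0.40. In PX it was 11.5 ± 5.73 CPM in animals 36 to 44 (SD, n = 5) and 34.9 ± 23.1 in animals 57 to 70 (SD, n = 6), with acinar scores of 11.7 ± 0.57 and 13.6 ± 1.001. The duct score, of duct epithelial markers, also differed by run. It was 2.71 ± 0.27 and 3.86 ± 0.34 in these sham runs and 4.91 ± 0.30 and 5.67 ± 0.73 in these PX runs (SD). The part of acinar and duct RNA in these levels was not tested beyond a fit with the acinar score.

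The log2 fold changes over all libraries were 1.55 ± 0.50 for Kcnq1 and 1.87 ± 0.62 for Kcne1 (SE; edgeR, adjusted p = 0.023 and 0.026). Without PX 65 they were 1.17 and 1.41 and no longer called (adjusted p = 0.059 and 0.071). After adjustment for the acinar score they were 0.46 and 0.51 (adjusted p = 0.072 and 0.23), and in the neighbouring animal numbers both turned, to -0.30 for Kcnq1 and -0.60 for Kcne1 (adjusted p = 0.68 and 0.59). The strand setting of the counting is not given in the sources used here, so reads of an antisense gene within Kcnq1 could not be told apart.

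Kcng2 and Kcns3, the modifier pores, moved in opposite directions. Kcng2 ranged from 1.90 to 3.40 CPM in sham and from 0.505 to 2.003 CPM in PX, with 8 of 11 PX libraries below every sham library and a log2 fold change of -1.12 ± 0.22 (SE; edgeR, adjusted p = 4.8e-04). It met the limit of 10 reads in all 10 sham libraries but in only 5 of 11 PX libraries. With 3 to 16 reads per PX library, its PX values are limited by depth. Kcns3 ranged from 1.33 to 3.71 CPM in sham and from 2.52 to 8.68 CPM in PX. Of 11 PX libraries 7 lay above every sham library, with PX 70 lowest and, after TMM scaling, PX 65 highest. Kcns3 rose by 1.21 ± 0.25 on the log2 scale, 2.32-fold (SE; edgeR, adjusted p = 7.4e-04). Both products are silent on their own and are known to join delayed rectifier pores.

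**Figure D3:**
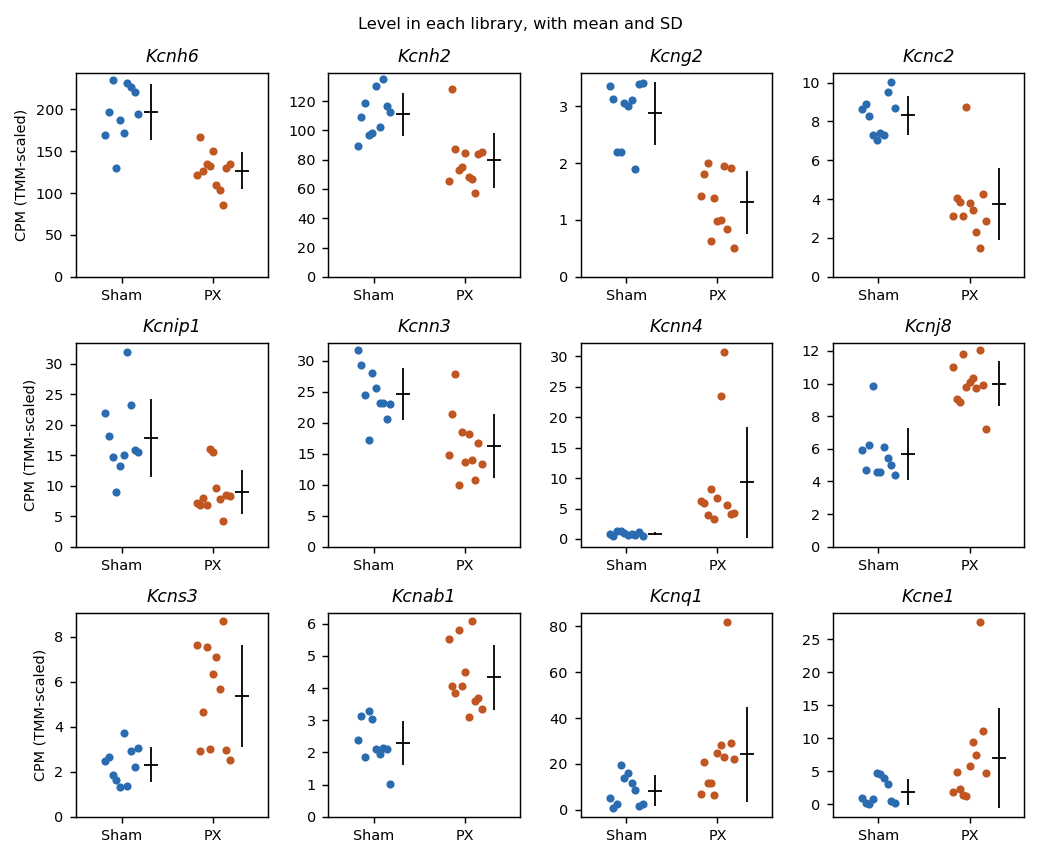
TMM-scaled CPM of 12 members in each library (points) with the mean and SD (bars) for 10 sham and 11 PX libraries. Kcnh6, Kcnh2, Kcng2, Kcnc2, Kcnip1 and Kcnn3 are lower in most PX libraries, and Kcnn4 is above every sham library in all 11. After this scaling PX 65 stands apart for Kcnq1 and Kcne1.

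Among the cytoplasmic partners, Kcnip1, a calcium-binding subunit of A-type channels, fell. It ranged from 8.96 to 31.9 CPM in sham (median 15.6) and from 4.23 to 15.9 CPM in PX (median 8.01). PX 44 and PX 57, at 15.9 and 15.6 CPM, were at the sham median, and 8 of 11 PX libraries were below every sham library. The log2 fold change was -0.97 ± 0.21 (SE; edgeR, adjusted p = 0.0014), 1.962-fold lower. Kcnip3 and Kcnip4, of the same class, had values of 0.28 ± 0.12 and 0.53 ± 0.27 (SE) and were not called. Kcnip3 was called when Sham 46, PX 36 or PX 44 was left out, at 0.43, 0.34 and 0.32 (edgeR, adjusted p = 0.0022, 0.043 and 0.049). In each of these fits the TMM reference was Sham 47 rather than PX 44. Kcnab2 and Kcnrg had log2 fold changes of 0.74 and -0.32 and were not called. Kcnab1, a beta subunit of Shaker-class channels, rose by 0.90 ± 0.19 (SE; edgeR, adjusted p = 7.7e-04), from 1.02 to 3.28 CPM in sham to 3.11 to 6.08 CPM in PX, with 10 of 11 PX libraries above every sham library.

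Inward rectifiers had 1 called member, Kcnj8, the ATP-sensitive pore of vascular smooth muscle and pericytes. It ranged from 4.42 to 9.84 CPM in sham (median 5.23) and from 7.23 to 12.07 CPM in PX (median 9.89). Sham 46 was at the level of the PX libraries, and the other 9 sham libraries lay below all 11 of them. It rose by 0.80 ± 0.14 on the log2 scale, 1.74-fold (SE; edgeR, adjusted p = 1.5e-04). Abcc9, the sulfonylurea receptor that pairs with it in those cells and was chosen for mention after its value was seen, rose by 0.60 ± 0.18 (SE; edgeR, adjusted p = 0.011). Sham 46 also had the highest mesenchymal score of the sham libraries, 5.40, beside 4.66 for the next; the part of mesenchymal RNA in the Kcnj8 result was not tested beyond the covariate fit, where its value was 0.30 (adjusted p = 0.58).

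Kcnj5, a G-protein-gated rectifier named here after its values were seen, showed how 1 library can set a mean. It ranged from 28.3 to 40.3 CPM in sham and from 15.1 to 111 CPM in PX, and 8 of 11 PX libraries lay below every sham library while PX 44 was the highest of all. Over all libraries its log2 fold change was -0.04 ± 0.25 (SE; edgeR, adjusted p = 0.92), and without PX 44 it was -0.38 ± 0.11 (adjusted p = 0.012). Kcnj2, a strong inward rectifier, and Kcnj6 and Kcnj3, G-protein-gated pores, had log2 fold changes of -0.10, 0.36 and 0.07 with standard errors of 0.22 to 0.36, and Kcnj14 and Kcnj15 of -0.57 and -0.38, none of them called.

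Of the leak channels, Kcnk16 did not pass: it ranged from 65.01 to 108 CPM in sham and from 70.6 to 130 CPM in PX, with a log2 fold change of 0.00 ± 0.12 (SE; edgeR, adjusted p = 0.996). Kcnk3, the acid-sensitive TASK channel, fell from 33.9 ± 8.60 (SD, n = 10) to 24.1 ± 7.44 CPM (SD, n = 11). Its log2 fold change was -0.49 ± 0.18 (SE; edgeR, adjusted p = 0.036), and leaving out any of 12 libraries ended its call (adjusted p up to 0.13). Most of those fits had Sham 47 as the TMM reference, and that reference over all 21 libraries also ended the call of Kcnk3. Kcnk1, of the TWIK class, rose by 0.33 ± 0.11 (SE; edgeR, adjusted p = 0.025), with all 11 PX libraries, at 32.9 to 45.6 CPM, above the sham median of 29.2 but below Sham 46 at 49.96 CPM; with library totals alone it was 0.09 and not called. Kcnk12, Kcnk2 and Kcnk6 had values of -0.42, 0.02 and 0.33 and were not called.

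The calcium-activated genes split by class. Kcnn4, the intermediate-conductance channel known from immune cells and epithelia, ranged from 0.480 to 1.35 CPM in sham (median 0.869) and from 3.21 to 30.7 CPM in PX (median 5.86). The groups did not overlap, and PX 62 and PX 58, at 30.7 and 23.5 CPM, were far above the other PX libraries. It rose 10.4-fold, by 3.37 ± 0.43 on the log2 scale (SE; edgeR, adjusted p = 5.8e-06), and by 2.57 ± 0.35 in the neighbouring animal numbers, where it was the 1 member still called (adjusted p = 0.0015). PX 62 and PX 58 also had the highest macrophage scores, 5.96 and 5.44, beside 3.14 to 5.00 in the other PX libraries. The duct score, of epithelial markers, was 3.28 ± 0.67 in the 10 sham and 5.32 ± 0.68 in the 11 PX libraries (SD; permutation test, adjusted p = 1.9e-04), with 4 of 5 tested markers called higher. It was highest in PX 65, at 6.53, followed by PX 58 at 6.27 and PX 62 at 6.03, and its part in the Kcnn4 result was not tested. With both of those scores, macrophage and mesenchymal, in the fit its value was 0.53 (adjusted p = 0.57).

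The small-conductance (SK) channels Kcnn1, Kcnn2 and Kcnn3, which give the after-hyperpolarization that follows calcium entry, all fell. Kcnn3 ranged from 17.3 to 31.7 CPM in sham (median 23.8) and from 9.91 to 27.9 CPM in PX (median 14.9), with 7 of 11 PX libraries below every sham library and a log2 fold change of -0.60 ± 0.15 (SE; edgeR, adjusted p = 0.0045). Kcnn2 fell by 1.02 ± 0.25 (adjusted p = 0.0035), with PX 44 at 6.67 CPM and the other PX libraries at 1.22 to 4.43 CPM. Kcnn1, at 0.674 to 2.59 CPM in sham and 0.142 to 2.07 CPM in PX, had a log2 fold change of -0.90 ± 0.32 (adjusted p = 0.032), and its call ended when any of 10 libraries was left out. Most of those fits had Sham 47 as the TMM reference, with which Kcnn1 stayed called over all 21 libraries. Kcnma1 and its partner Kcnmb2 had log2 fold changes of -0.21 ± 0.17 and -0.13 ± 0.14 (SE; edgeR, adjusted p = 0.35 and 0.51), within the spread between libraries, and the sodium-activated Kcnt1 had 0.38 ± 0.28.

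**Figure D4:**
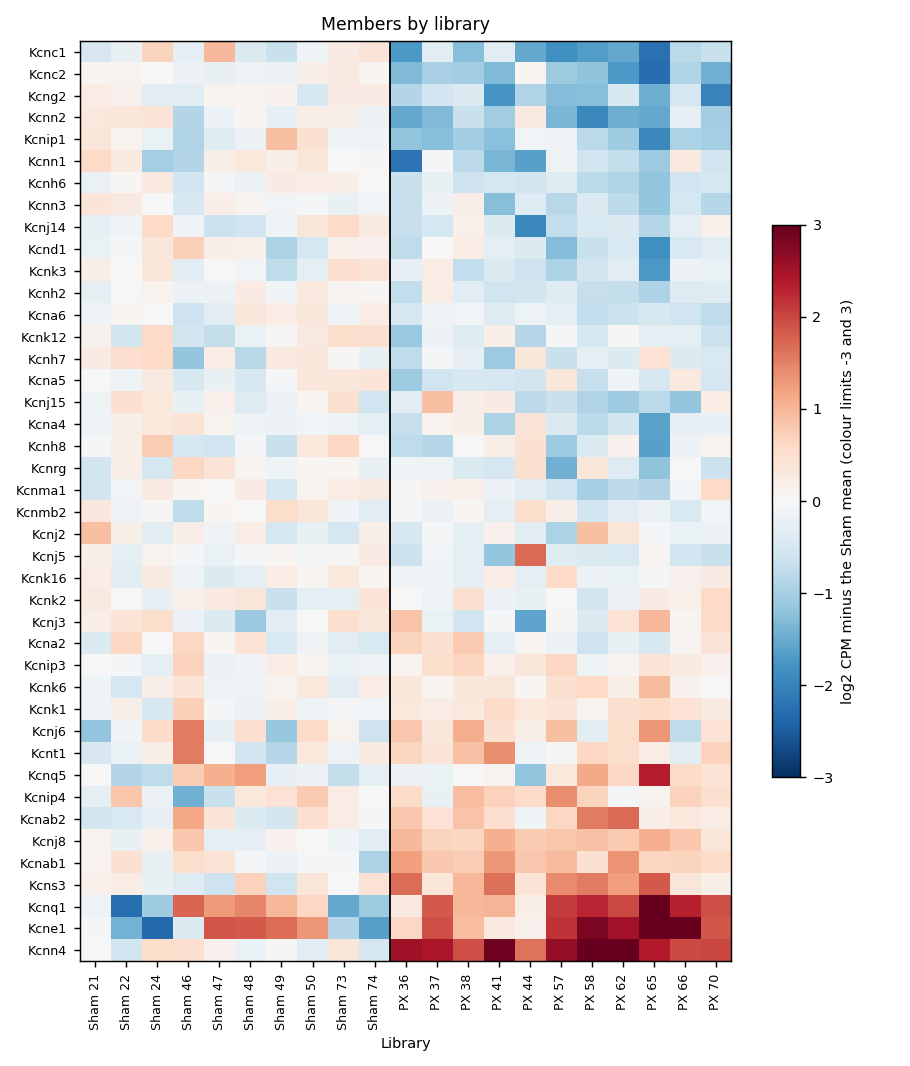
Log2 CPM minus the sham mean for 42 of the 45 tested members (rows, ordered by log2 fold change) in each library (columns, sham then PX by animal number), with the colour scale stopped at its ends. PX 65 shows the deepest falls in several upper rows, PX 44 departs from the other PX libraries for Kcnc2 and Kcnj5, and Kcnq1 and Kcne1 vary within both groups.

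Genes that work with these channels were counted for context. Of 20 channel partners not named Kcn 15 were tested, and 7 were lower, 1 higher and 7 not called, and their median on the log2 scale was -0.35. Over all tested genes 16.2% were called lower and 14.9% higher, with a median of -0.04. The 3 of lowest p were Amigo1, a partner of delayed rectifiers, at -0.65 ± 0.13, Dpp6, a partner of A-type channels, at -0.53 ± 0.11, and Abcc8, the sulfonylurea receptor of beta cells, at -0.50 ± 0.11 (SE; edgeR, adjusted p = 5.4e-04, 9.2e-04 and 0.0020). Of 32 calcium, sodium and other channel genes 29 were tested, 13 lower, 2 higher and 14 not called, with a median of -0.36, beside the same shares and median of all genes. Scn8a, a sodium channel pore, fell by 0.97 ± 0.18, Hcn2, a pacemaker channel, by 0.74 ± 0.14 and Cacna1b, a calcium channel pore, by 0.88 ± 0.17 on the log2 scale (SE; edgeR). The lists were chosen with earlier results of these data known.

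BG averaged 124 ± 23.1 over the 11 PX animals (SD) and 94.7 ± 6.001 over the 10 sham animals (SD). Within PX, where it ranged from 101 to 174, a slope per 10 units was fitted for each gene over the 11 libraries. For 0 of 46 members did the slope pass (edgeR quasi-likelihood test, lowest adjusted p = 0.33), and 0.0% of 14442 genes passed; DESeq2 called 0 members and 0.09% and 0.0969% of genes as positive and negative. At an unadjusted p under 0.05 there were 4 members with a positive and 5 with a negative slope, beside 5.61% and 6.55% of all genes. The median slope of the members was -0.03 on the log2 scale per 10 units, from -0.22 to 0.25, with a median standard error of 0.07.

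The lowest p of any member was that of Kcna4, with a slope of -0.21 ± 0.05 per 10 units (SE; edgeR, unadjusted p = 0.0017, adjusted p = 0.33), followed by Kcnk3 at -0.16 ± 0.05 (unadjusted p = 0.012, adjusted p = 0.36). Kcns3 and Kcnq5 had positive slopes of 0.18 ± 0.07 and 0.25 ± 0.09 (adjusted p = 0.37 each). PX 65, of BG 174, was lowest for Kcna4 and Kcnk3 and, after TMM scaling, highest for Kcns3 and Kcnq5. Its place as highest depended on its TMM factor of 0.359. For Kcns3 it had 41 reads in a total of 13187959, beside 54 of 6054177 in PX 36. For Kcnq5 it had 37 reads, beside 29 of 9056756 in PX 58. Without PX 65 the slopes of Kcna4, Kcnk3 and Kcns3 were -0.17, -0.07 and 0.23, and that of Kcnq5 was -0.00063. There 4 members rather than 9 had an unadjusted p under 0.05, beside 2.77% of all genes rather than 12.2%. Without PX 65 and PX 41, the animals of highest BG, there were 2 (5.71% of all genes). PX 65 also had the highest acinar score, so BG and exocrine RNA could not be told apart in that library.

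**Figure D5:**
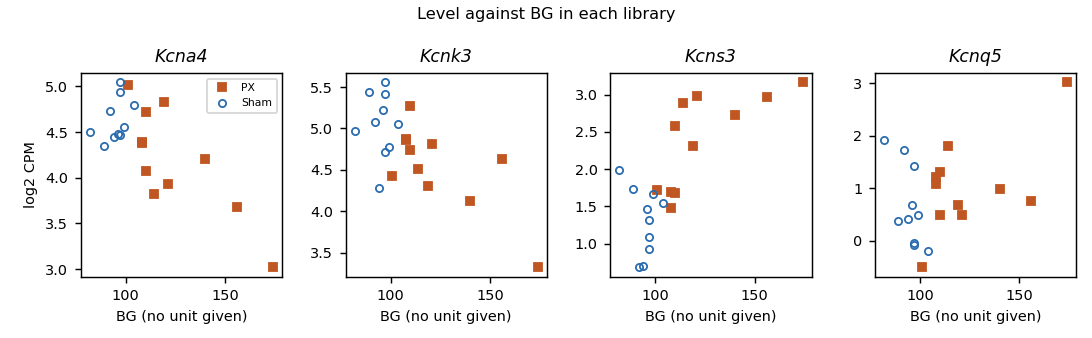
Log2 CPM against BG (no unit given) for the 4 members of lowest unadjusted p in the slope over PX libraries; squares are the 11 PX and circles the 10 sham libraries. The PX library at a BG of 174 is at the end of each PX range after TMM scaling.

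With the 8 PX animals of BG 121 or less, 5 members were higher and 9 lower than sham (edgeR; 12% and 7.24% of all genes). Kcnn4, Kcnj8, Kcns3 and Kcnab1 were among those that kept their rise, and Kcnc1, Kcnc2, Kcng2, Kcnip1, Kcnn2, Kcnh6, Kcna6 and Kcnh2 among those that kept their fall. The falls of Kcnh6 and Kcnc2 were then 0.56 and 0.96 on the log2 scale.

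The authors' deposited table of the comparison holds 45 members and gives 8 as higher and 14 as lower at its adjusted p under 0.05. Of these, 8 higher and 13 lower members were called here too. Kcnj14, with an adjusted p of 0.043 in the authors' deposited table and 0.060 here (edgeR), and Kcnd1, with 0.057 and 0.048, were called in 1 of them each, and both were singled out after their values were seen. In the authors' deposited table Kcnh6 has a log2 fold change of -0.63 and Kcnn4 of 2.98.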

How the data were processed

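RNA of rat islets had been sequenced from polyA RNA with a directional kit, per the labels' protocols. The authors deposited whole-number read counts per gene with gene lengths in base pairs, and a table of their comparison with a log2 fold change, its linear ratio (fold change) and a p-value per gene. FastQC, Subread, featureCounts and limma are named in the submitters' processing notes; the build and their settings were not given in the sources used here. Groups and BG came from the sample titles. Counts were tested with edgeR 4.0.16 (R 4.3.3) by the quasi-likelihood method with TMM scaling, filterByExpr (minimum count 10) and Benjamini-Hochberg adjustment over all genes tested, first PX against sham and then a BG slope per 10 units within PX. The scripts were tested on simulated data. Between groups, 20.4% of simulated log2 changes of 0.5 and 81.8% of changes of 1 were called. For simulated BG slopes of 0.25 and 0.5 per 10 units, 52.5% and 91% were called. A member not called may therefore still differ. Alternatives used DESeq2 1.42.0, limma 3.58.1, other scalings, filters, covariates and sample sets. Library measures were compared by two-sided permutation tests with 100000 resamples (scipy 1.17.1), and log2 CPM had a prior count of 2. Total counts bound precision for genes of few reads.

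The members, the lists and the rule for named genes were chosen with earlier results of these data known. That rule took members called in the comparison, the 8 of highest level per kilobase, members called in the slope and a list of islet channels; the other members were added to account for all of them. Marker lists covered endocrine, beta, alpha, delta, PP, acinar, duct, macrophage, T and B cell, mesenchymal, endothelial, and Schwann and neuron genes. Counts and class sums include members that are not named; 4 genes of this prefix are not reported here by name.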

Additional observations from a re-analysis of the deposited data

Results flagged for a closer look

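Within the 10 sham libraries, 39 measures were searched for a library far from the rest, and 6 had one; chance flags about 1 in 20 groups. Sham 46 was the library in 4 of them. It was the highest for Kcnj8, at a log2 CPM of 3.34 with the next library at 2.70, and for Kcnip3, at 5.65 with the next at 5.18. It was the lowest for Kcnn2, at 1.64 with the next at 2.27, and its macrophage score of 2.98 was above the next of 2.04. Sham 74 was the lowest for Kcnab1, at 0.37 with the next at 1.09, and Sham 21 the highest for Kcnj2, at 2.74 with the next at 2.06.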

How the results depend on the processing

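No paired analysis was possible because the 2 groups share no animal numbers. Members called higher (8) and lower (14) became 4 higher with the acinar score as a covariate, 5 and 9 with the endocrine score, 0 and 0 with the macrophage and mesenchymal scores, 5 and 9 with PX animals of BG 121 or less, and 1 and 0 in PX 36 to 44 against Sham 46 to 50, a smaller set of libraries. Leaving out 1 library at a time gave 6 to 12 higher and 9 to 14 lower. There were 12 higher without Sham 46 (19.8% of all genes), 6 higher without PX 65 (13.1%) and 9 lower without PX 41 (10.6%). In the main fit 14.9% of all genes were higher and 16.2% lower. Without PX 44, PX 65 and Sham 46 together, and with Sham 47 as the TMM reference, both chosen after seeing the data, there were 12 and 13, and 11 and 12. Log2 fold changes turned sign with the macrophage and mesenchymal covariates for Kcna6 (0.13), Kcnh2 (0.030), Kcnk1 (-0.018) and Kcnn2 (0.43), and in the neighbouring animal numbers for Kcne1 (-0.60) and Kcnq1 (-0.30); the cause was not tested. The count of members called in the BG slope was 0 under all alternatives run with edgeR, DESeq2 and limma, with a lowest adjusted p of 0.092 to 0.99 over the libraries left out in turn. Members of few reads, such as Kcnc1, Kcnn1 and Kcnh1, are limited by depth.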
